A study of Homo sapiens with 12 samples.

Results

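The genes described here belong to the routes by which human cells mend damaged bases, mispaired bases and broken ends without copying a sister chromatid. The list held 39 genes of the 58735 in the count table, chosen by symbol: 5 of mismatch repair, 14 of base excision repair, 10 of nucleotide excision repair, MGMT of direct reversal, and 9 of non-homologous end joining. A filter on low counts kept 37 of them among 15378 tested genes, and NEIL3 and NHEJ1 did not pass it. RNA sequencing had been done on Ovcar8, a human cell line from a high-grade serous carcinoma of the ovary, in 4 groups of 3 libraries. A pair of groups overexpressed CCNE1 and also carried a short hairpin RNA against TMLHE, called shTMLHE 1 and shTMLHE 2 here. The CCNE1 group overexpressed CCNE1, the gene of the S-phase regulator cyclin E1, and the control group did neither. TMLHE encodes trimethyllysine dioxygenase, the first enzyme of carnitine synthesis. All cells, controls included, had been transduced with lentivirus and selected with puromycin. A group with a hairpin against another gene was not analysed here, and the sources do not say whether a group was a pool of cells or 1 clone. The design set CCNE1 overexpression against control and each hairpin group against CCNE1 overexpression.

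Mismatch repair begins with MutS dimers that find mispaired bases and loops, and MutL dimers then nick the new strand for resynthesis. In base excision repair a glycosylase removes a damaged base, an endonuclease cuts the bare site, and a polymerase and ligase fill and seal it. Nucleotide excision repair opens the helix around bulky lesions with TFIIH and cuts out a short strand on both sides, either after genome-wide scanning or behind a stalled RNA polymerase. Non-homologous end joining holds broken ends with Ku and DNA-PK and seals them with ligase IV, while MGMT takes an alkyl group directly from guanine.

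Library totals ran from 14.1 to 21.5 M counts. CCNE1 averaged 1269 ± 49.0 CPM with shTMLHE 1, 847 ± 21.2 CPM with shTMLHE 2, 1001 ± 34.0 CPM with CCNE1 overexpression alone and 33.1 ± 1.28 CPM in control (CPM, counts scaled to 1 M per library on TMM-adjusted library sizes, SD, n = 3). TMLHE averaged 0.956 ± 0.286 CPM with shTMLHE 1, 0.482 ± 0.241 CPM with shTMLHE 2, 15.7 ± 2.69 CPM with CCNE1 overexpression alone and 16.5 ± 1.62 CPM in control, and its fall passed the test with both hairpins. The epithelial markers PAX8 (at least 68.6 CPM) and KRT7, KRT8 and KRT18 were counted in every library, whereas WT1 reached at most 0.952 CPM and EPCAM at most 4.13 CPM. The leukocyte markers PTPRC and CD3E stayed at or below 0.164 CPM, the endothelial markers at or below 2.78 CPM and the fibroblast marker DCN at 0, but COL1A1 lay between 591 and 1590 CPM. In bulk RNA, a change in the mix of cells and a change in RNA per cell cannot be told apart.

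Most members differed between the knockdown and the CCNE1 libraries. On the TMM scale falls outnumbered rises in base excision repair with both hairpins, and rises outnumbered falls among the 5 mismatch repair genes. Counts, shares of all tested genes and the effect of other scalings are given route by route. With shTMLHE 2, 12 of 37 members were higher and 19 lower than with CCNE1 overexpression alone, or 83.8%, where 73% of all tested genes passed (36.8% higher and 36.2% lower; edgeR quasi-likelihood test, adjusted p under 0.05). With shTMLHE 1, 8 members were higher and 17 lower, or 67.6%, beside 60.7% of all tested genes (30.4% higher and 30.3% lower). CCNE1 overexpression against control had 12 members higher and 4 lower, or 43.2%, close to the 44.2% of all tested genes (25.1% higher and 19.1% lower). The median log2 fold change over the members was -0.25 with shTMLHE 2, beside 0.031 over all tested genes. It was -0.098 with shTMLHE 1, beside 0.034 over all tested genes, and 0.099 with CCNE1 overexpression, beside 0.047. Both hairpin comparisons use the same 3 CCNE1 libraries, so they are not independent of each other.

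A pair of measured features of these libraries touched every hairpin result. TMM factors were 1.11 to 1.23 in the hairpin libraries and 0.847 to 0.864 in the others. Scaling by total counts alone therefore moved the median of all tested genes to 0.43 with shTMLHE 1 and 0.56 with shTMLHE 2, and to -0.15 for shTMLHE 1 minus shTMLHE 2. On that scale 18 members were higher and 10 lower with shTMLHE 1, and 16 were higher and 12 lower with shTMLHE 2. Of the 15378 tested genes, 7844 were then higher and 2490 lower with shTMLHE 1, and 8315 higher and 3443 lower with shTMLHE 2. Changes below are relative to the TMM scale. A member whose value passed on either scale and changed sign under total counts is named as such. Some values that passed on neither scale also turned, among them LIG3 and ERCC5 with shTMLHE 1 and ERCC8 with shTMLHE 2. Fold changes also followed the GC content of a gene's exons across all tested genes, and a fit with the trend on GC content and length removed is given beside results whose call it changed or whose value it moved by more than 1.5 times.

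**Figure D1:**
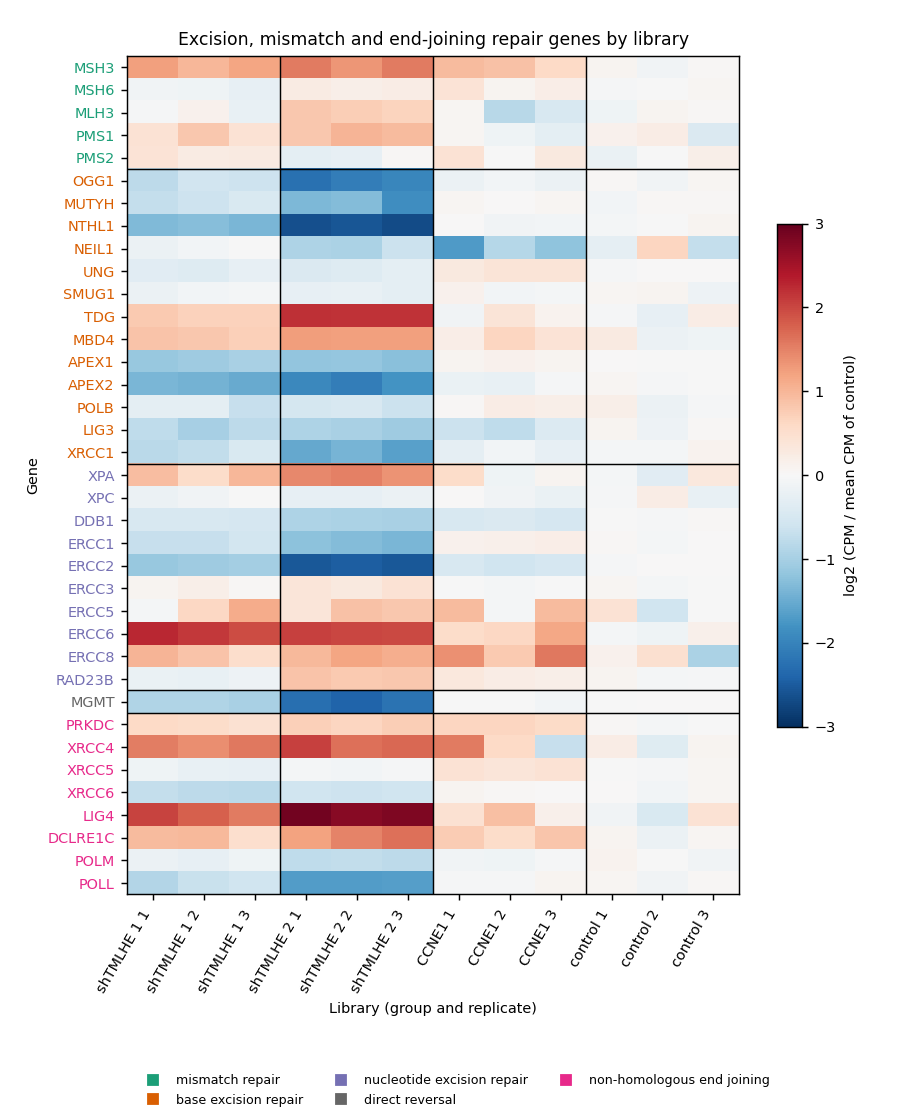
Colour gives log2 of the CPM in each of 12 libraries (columns, shTMLHE 1, shTMLHE 2, CCNE1 and control) over the control mean for the 37 tested members (rows, grouped by repair route). NTHL1, OGG1, ERCC2 and MGMT are darkest blue with shTMLHE 2, where NTHL1 averaged 17.3 CPM against 107 CPM in control, and paler in the CCNE1 and control columns, while LIG4 and TDG are darkest red with shTMLHE 2.

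**Figure D2:**
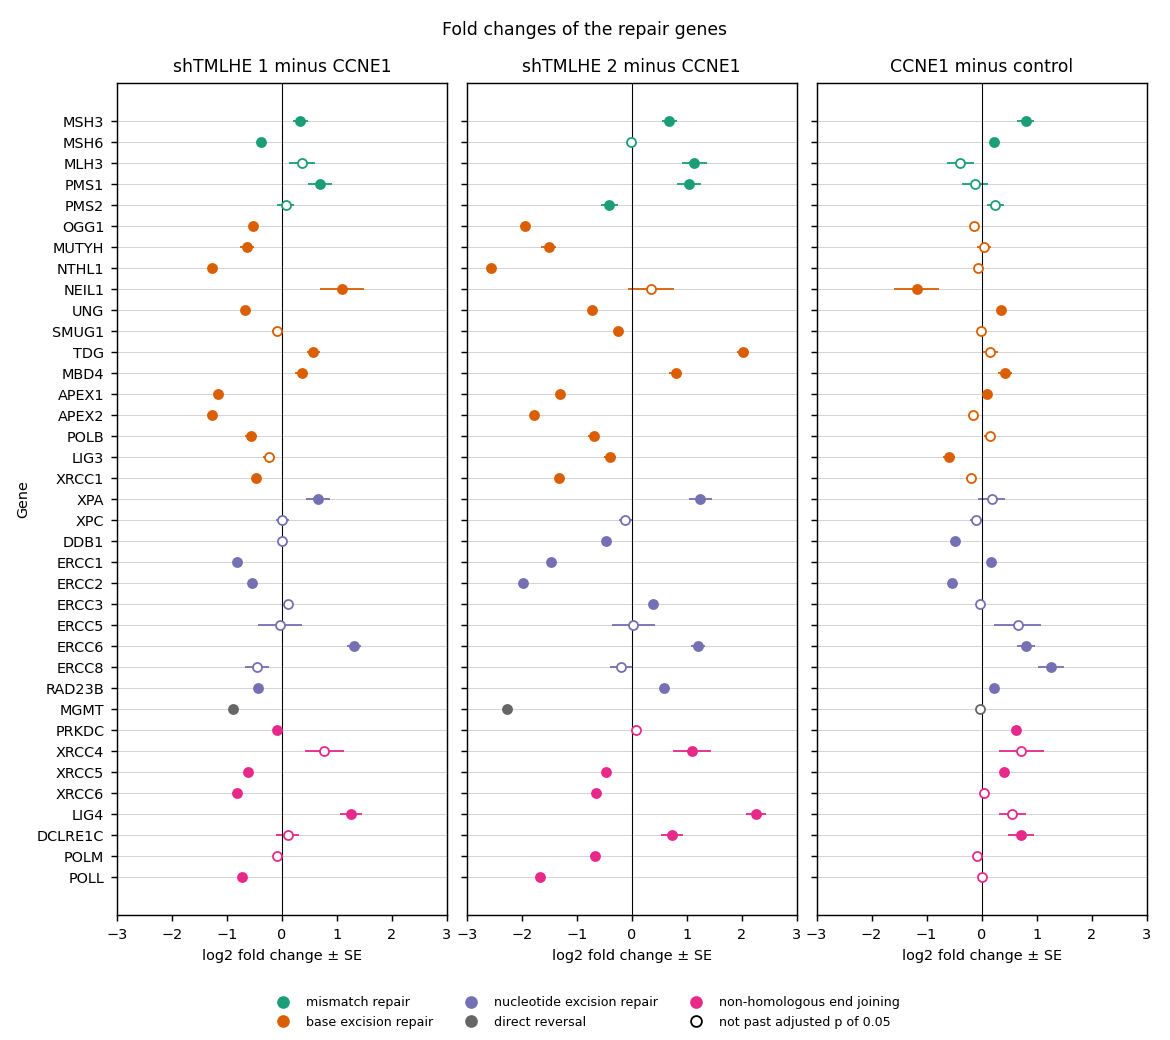
Points are log2 fold changes with SE bars for the 37 tested members in 3 comparisons, filled where the edgeR adjusted p was under 0.05. With shTMLHE 2, 10 of 13 base excision genes lie left of 0 and pass the test, where 36.2% of all tested genes fell. LIG4 at 2.26 and TDG at 2.02 lie farthest right there. Under total counts the called LIG3, SMUG1, DDB1, PMS2 and XRCC5 and the uncalled MSH6, XPC and ERCC8 turn to above 0 with shTMLHE 2.

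The start regions of 4 members with large changes are shown because they let the letters be set beside the movement: NTHL1 and MGMT, the largest falls, TDG, the largest rise in base excision repair, and MSH3, the mismatch gene with the largest rise under CCNE1. Each runs 5′ to 3′ from 250 bases before to 50 after the annotated start, from RefSeq on GRCh38.p14. Capitals mark matches, on either strand, to the E2F-type letters TTNNCGC with each N a C or a G, which in MSH3 overlap in 1 run. The windows lie at chr16:2047785-2048084, minus strand for NTHL1, chr10:129466991-129467290, plus strand for MGMT, chr12:103965622-103965921, plus strand for TDG and chr5:80654402-80654701, plus strand for MSH3.
NTHL1: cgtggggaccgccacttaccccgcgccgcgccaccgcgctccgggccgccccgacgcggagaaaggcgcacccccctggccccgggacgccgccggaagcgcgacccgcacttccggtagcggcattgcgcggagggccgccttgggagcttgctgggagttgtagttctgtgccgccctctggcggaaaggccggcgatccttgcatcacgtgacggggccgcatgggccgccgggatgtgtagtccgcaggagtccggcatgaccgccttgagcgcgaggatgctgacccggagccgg
MGMT: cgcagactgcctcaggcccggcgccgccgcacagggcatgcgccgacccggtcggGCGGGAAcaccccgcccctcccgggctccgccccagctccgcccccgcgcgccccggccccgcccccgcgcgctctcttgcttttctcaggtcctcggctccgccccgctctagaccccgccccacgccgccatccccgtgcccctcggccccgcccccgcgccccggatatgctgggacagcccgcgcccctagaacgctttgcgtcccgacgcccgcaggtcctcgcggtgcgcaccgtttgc
TDG: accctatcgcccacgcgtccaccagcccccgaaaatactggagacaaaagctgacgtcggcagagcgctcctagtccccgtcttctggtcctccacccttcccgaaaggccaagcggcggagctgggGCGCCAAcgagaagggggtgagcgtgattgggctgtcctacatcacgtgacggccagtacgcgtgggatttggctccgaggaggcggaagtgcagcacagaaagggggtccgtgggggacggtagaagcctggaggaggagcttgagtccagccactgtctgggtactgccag
MSH3: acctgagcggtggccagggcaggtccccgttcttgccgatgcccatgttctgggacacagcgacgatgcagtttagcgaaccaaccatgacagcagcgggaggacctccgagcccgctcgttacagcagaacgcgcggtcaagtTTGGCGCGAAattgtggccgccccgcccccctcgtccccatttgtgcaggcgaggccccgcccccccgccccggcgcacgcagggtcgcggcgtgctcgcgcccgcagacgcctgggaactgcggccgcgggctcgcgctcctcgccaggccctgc
The NTHL1 window had a GC content of 73.3%, 42 CpG pairs and no match. The MGMT window had 78.7%, 45 CpG pairs and 1 match, and the TDG window 63.3%, 22 CpG pairs and 1 match. The MSH3 window had 71.0%, 37 CpG pairs and 2 matches. RefSeq windows were matched for 35 of the 39 members, and 17 of those genes (48.6%) held a match in at least 1 window, where 15.3% of 27305 genes in the table did. Counted by window the share was 22 of 56 (39.3%) in the members, with a median GC content of 64.5%, and 4553 of 35116 (13%) in the whole table, with a median of 58.7%. Among members with a window, a match was present in 6 of 10 that rose with CCNE1 overexpression, in 0 of 4 that fell and in 11 of 19 that did not pass. With shTMLHE 1 the counts were 3 of 8 that rose, 10 of 14 that fell and 4 of 11 that did not pass, and with shTMLHE 2 they were 6 of 12, 9 of 16 and 2 of 5. A match describes letters only.

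Base excision repair held the largest falls after TMLHE knockdown. Of 13 tested members, 10 fell and 2 rose with shTMLHE 2, with a median log2 fold change of -0.73. With shTMLHE 1, 8 fell and 3 rose, with a median of -0.52. Over all tested genes 36.2% fell and 36.8% rose with shTMLHE 2, and 30.3% fell and 30.4% rose with shTMLHE 1. Under total counts the split was 7 lower and 3 higher with shTMLHE 2 and 4 lower and 4 higher with shTMLHE 1. Among the 15378 tested genes it was then 3443 lower and 8315 higher with shTMLHE 2, and 2490 and 7844 with shTMLHE 1. With the GC and length trend removed it was 9 lower and 3 higher with shTMLHE 2, and 8 lower and 2 higher with shTMLHE 1. Among the 15378 tested genes it was then 5047 lower and 4712 higher with shTMLHE 2, and 4394 and 4295 with shTMLHE 1. UNG, MBD4 and APEX1 rose and LIG3 and NEIL1 fell with CCNE1 overexpression alone, with a median of -0.0081. There 25.1% of all tested genes were higher and 19.1% lower. Under total counts the split was 2 higher and 3 lower among the members, and 3673 and 3129 among all tested genes.

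NTHL1 removes oxidised pyrimidines and lies on GRCh38 chromosome 16, 2039815 to 2047866, minus strand. NTHL1 stood at 42.5, 43.8 and 41.4 CPM with shTMLHE 1, at 17.2, 18.04 and 16.5 CPM with shTMLHE 2, at 108, 99.01 and 100.4 CPM with CCNE1 overexpression alone and at 102, 106 and 113 CPM in control. All 6 hairpin libraries were below all 6 others, and the groups did not overlap except CCNE1 with control. The log2 fold change was -2.57 ± 0.066 (SE) with shTMLHE 2, or 5.93-fold lower (edgeR adjusted p = 8.64e-30), and -1.27 ± 0.061 with shTMLHE 1, or 2.41-fold lower. NTHL1 also has the highest exon GC content of the members, 63.2%, and with the trend removed the changes were -1.28 with shTMLHE 2 and -0.65 with shTMLHE 1, both still past the threshold. CCNE1 overexpression gave -0.059 ± 0.058, which did not pass.

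OGG1, the glycosylase of oxidised guanine, averaged 33.04 ± 2.55 CPM with shTMLHE 1, 12.3 ± 1.21 CPM with shTMLHE 2, 47.3 ± 1.78 CPM with CCNE1 alone and 52.2 ± 2.94 CPM in control. It fell with both hairpins, at -1.95 ± 0.089 with shTMLHE 2, or 3.86-fold lower, and -0.52 ± 0.082 with shTMLHE 1. With the trend removed the shTMLHE 2 value was -1.89. Under total counts the shTMLHE 1 value was -0.13 and no longer passed. MUTYH removes adenine paired with oxidised guanine. It averaged 13.3 ± 1.21 CPM with shTMLHE 1, 7.21 ± 1.45 CPM with shTMLHE 2, 20.8 ± 0.311 CPM with CCNE1 alone and 20.1 ± 0.940 CPM in control, and fell with both hairpins, at -1.51 ± 0.13 with shTMLHE 2 and -0.64 ± 0.13 with shTMLHE 1 (the shTMLHE 1 value was -0.25 under total counts and did not pass). Trend-removed values of MUTYH were -0.78 with shTMLHE 2 and -0.35 with shTMLHE 1, both called. Exons of OGG1 overlap other genes over 29.04% of their length, and whether the counting used strand is not given in the sources used here, so reads of such partners cannot be told apart.

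The remaining oxidised-base glycosylases of the list, NEIL1 and NEIL3, were scarce. NEIL1, which also acts on oxidised pyrimidines, had few reads. NEIL1 stood at 1.92, 2.05 and 2.18 CPM with shTMLHE 1, at 1.15, 1.13 and 1.40 CPM with shTMLHE 2, at 0.672, 1.21 and 0.950 CPM with CCNE1 overexpression alone and at 1.81, 3.41 and 1.32 CPM in control. The CCNE1 libraries lay below every control and every shTMLHE 1 library and overlapped shTMLHE 2. The log2 fold change was 1.09 ± 0.4 with shTMLHE 1 (edgeR adjusted p = 0.0188), 0.35 ± 0.41 with shTMLHE 2, which did not pass, and -1.18 ± 0.41 with CCNE1 overexpression (edgeR adjusted p = 0.0178). Without CCNE1 replicate 1 the shTMLHE 1 value was 0.91 and the CCNE1 value -1.002, and without control replicate 2 the CCNE1 value was -0.71, none of which passed. After removal of the trend the CCNE1 value of -0.99 did not pass and the shTMLHE 2 value of 1.05 did. Exons of NEIL1 overlap other genes over 30.5% of their length. NEIL3, a glycosylase of single-stranded and crosslinked DNA, had 0 counts in all 12 libraries, and the limit that a count of 0 allows, taken as 3 counts per library, was 0.123 to 0.248 CPM.

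Among glycosylases of uracil and mispaired thymine, TDG and MBD4 rose and UNG fell with both hairpins. TDG removes thymine or uracil paired with guanine and the oxidised forms of methylcytosine, and it lies on chromosome 12, 103965804 to 103988874, plus strand. TDG stood at 17.3, 16.2 and 16.2 CPM with shTMLHE 1, at 45.9, 44.6 and 44.98 CPM with shTMLHE 2, at 9.34, 12.98 and 10.8 CPM with CCNE1 overexpression alone and at 9.83, 8.48 and 11.7 CPM in control. The shTMLHE 2 libraries were highest, shTMLHE 1 came next, and both lay above all CCNE1 and control libraries, which overlapped. The log2 fold change was 2.02 ± 0.11 with shTMLHE 2, or 4.05-fold higher (edgeR adjusted p = 6.08e-19), and 0.57 ± 0.12 with shTMLHE 1. Without the GC and length trend these were 1.12 with shTMLHE 2 and 0.25 with shTMLHE 1, and the second did not pass.

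MBD4 binds methylated CpG and removes mispaired thymine and uracil there. MBD4 stood at 20.4, 19.6 and 18.4 CPM with shTMLHE 1, at 26.9, 26.3 and 26.3 CPM with shTMLHE 2, at 12.9, 17.4 and 15.02 CPM with CCNE1 overexpression alone and at 13.5, 9.91 and 10.3 CPM in control. All hairpin libraries lay above the CCNE1 libraries, and CCNE1 and control libraries overlapped. MBD4 rose with shTMLHE 2 by 0.80 ± 0.12, with shTMLHE 1 by 0.36 ± 0.12 and with CCNE1 overexpression by 0.43 ± 0.13 on the log2 scale. The shTMLHE 1 call was lost without CCNE1 replicate 1 (0.26), and the CCNE1 call without CCNE1 replicate 2 (0.31) and with the trend removed (0.27). The shTMLHE 2 rise was then 0.45 and still called.

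UNG, the main uracil glycosylase of replicating DNA, averaged 150.0 ± 8.43 CPM with shTMLHE 1, 145 ± 8.05 CPM with shTMLHE 2, 240.0 ± 9.33 CPM with CCNE1 alone and 187 ± 3.25 CPM in control. It rose with CCNE1 overexpression, at 0.36 ± 0.045 (edgeR adjusted p = 2.27e-08), or 0.58 with the trend removed, and fell with shTMLHE 2 (-0.73 ± 0.045) and shTMLHE 1 (-0.68 ± 0.045). The hairpin libraries lay below control as well as below CCNE1. With the trend removed the hairpin values were -0.29 with shTMLHE 2 and -0.41 with shTMLHE 1 and still passed, and under total counts they were -0.20 with shTMLHE 2 and -0.29 with shTMLHE 1. SMUG1, a second uracil glycosylase, averaged 35.2 ± 1.52 CPM with shTMLHE 1, 31.8 ± 0.617 CPM with shTMLHE 2, 37.8 ± 3.33 CPM with CCNE1 alone and 37.8 ± 3.16 CPM in control. It fell slightly with shTMLHE 2, at -0.25 ± 0.081, but the value turned to 0.28 under total counts, was -0.18 and uncalled without CCNE1 replicate 1, and was -0.076 and uncalled with the trend removed. With shTMLHE 1 its value was -0.10 and did not pass, or 0.30 under total counts.

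Of the 5 genes that act after the glycosylase, APEX1, APEX2, POLB and XRCC1 fell with both hairpins. APEX1, the main endonuclease at bare sites, averaged 216 ± 12.2 CPM with shTMLHE 1, 196 ± 5.78 CPM with shTMLHE 2, 483 ± 9.20 CPM with CCNE1 alone and 450.5 ± 6.26 CPM in control. Its log2 fold change was -1.30 ± 0.038 with shTMLHE 2 and -1.16 ± 0.038 with shTMLHE 1, and -0.94 and -0.83 with the trend removed, all past the threshold. The rise of 0.10 ± 0.037 with CCNE1 overexpression was small. It was lost without CCNE1 replicate 2 (0.083), control replicate 2 (0.10) or control replicate 3 (0.09), and under total counts (0.079), whereas the trend-removed value was 0.28 and called.

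APEX2 is a second endonuclease and exonuclease that works with PCNA. APEX2 stood at 26.7, 25.8 and 24.1 CPM with shTMLHE 1, at 18.1, 16.4 and 19.97 CPM with shTMLHE 2, at 59.9, 58.6 and 67.7 CPM with CCNE1 overexpression alone and at 71.6, 66.9 and 67.9 CPM in control. The shTMLHE 2 libraries were the lowest, shTMLHE 1 came next, and no hairpin library reached a CCNE1 or control library. The log2 fold changes were -1.77 ± 0.08 with shTMLHE 2 (edgeR adjusted p = 9.03e-22) and -1.28 ± 0.079 with shTMLHE 1, and -1.29 and -1.06 with the trend removed. The CCNE1 value of -0.15 ± 0.074 did not pass, but passed at -0.22 without CCNE1 replicate 3.

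The gap-filling polymerase POLB averaged 24.2 ± 3.63 CPM with shTMLHE 1, 22.1 ± 1.31 CPM with shTMLHE 2, 35.7 ± 2.58 CPM with CCNE1 alone and 32.2 ± 3.88 CPM in control. It fell with shTMLHE 2 (-0.69 ± 0.1) and shTMLHE 1 (-0.56 ± 0.1) although its exon GC content is low, 39.6%, and with the trend removed the values were larger, -1.54 with shTMLHE 2 and -0.83 with shTMLHE 1. Under total counts they were -0.16 with shTMLHE 2 and -0.17 with shTMLHE 1 and did not pass. The scaffold XRCC1 averaged 35.3 ± 4.50 CPM with shTMLHE 1, 19.6 ± 1.65 CPM with shTMLHE 2, 48.7 ± 3.62 CPM with CCNE1 alone and 55.9 ± 3.81 CPM in control, and it fell with both hairpins, at -1.32 ± 0.089 with shTMLHE 2 and -0.47 ± 0.085 with shTMLHE 1. The shTMLHE 2 fall of XRCC1 was -0.52 and called with the trend removed. The shTMLHE 1 fall of XRCC1 did not pass with the trend removed (-0.13) or under total counts (-0.074). Its CCNE1 value of -0.20 did not pass, but passed at -0.26 without CCNE1 replicate 2. LIG3, the ligase that XRCC1 carries, averaged 18.1 ± 1.60 CPM with shTMLHE 1, 16.2 ± 0.832 CPM with shTMLHE 2, 21.4 ± 2.59 CPM with CCNE1 alone and 32.3 ± 2.69 CPM in control. It fell with CCNE1 overexpression, at -0.60 ± 0.11, and with shTMLHE 2, at -0.39 ± 0.11, the second of which turned to 0.14 under total counts. With shTMLHE 1 its value of -0.24 ± 0.11 did not pass, but passed at -0.32 without CCNE1 replicate 2. Under total counts the shTMLHE 1 value of LIG3 turned to 0.16 and did not pass. Trend-removed values of LIG3 were -0.65 with shTMLHE 2 and -0.56 with shTMLHE 1, both called. Exons of LIG3 and XRCC1 overlap other genes over 30.5% and 23.97% of their length.

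**Figure D3:**
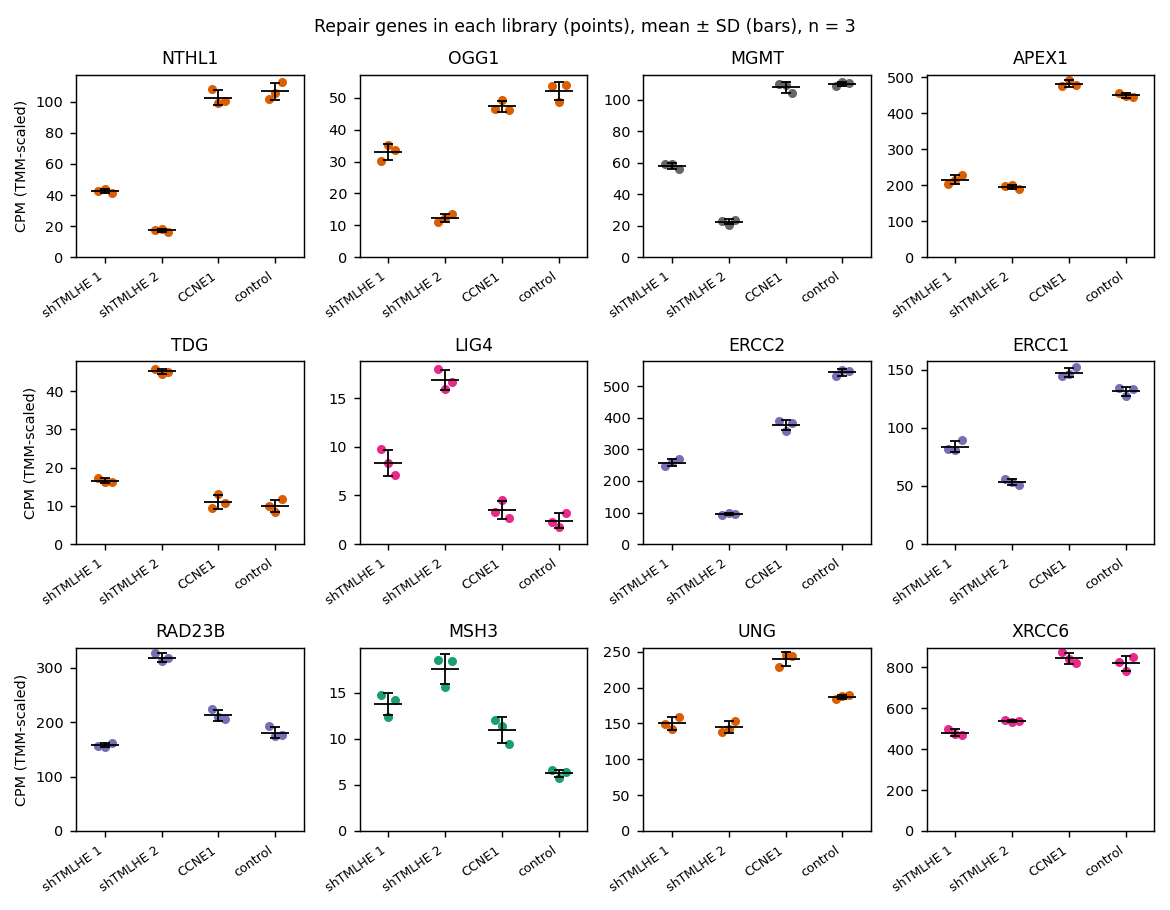
Points are CPM in each library for 12 members, with bars at the mean ± SD (n = 3), and groups run shTMLHE 1, shTMLHE 2, CCNE1 and control. NTHL1, OGG1, MGMT, ERCC2 and ERCC1 are lowest with shTMLHE 2, TDG and LIG4 are highest there, and RAD23B averages 158 CPM with shTMLHE 1 and 319 CPM with shTMLHE 2, on either side of the 213 CPM with CCNE1 alone.

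MGMT is the transferase that makes cells resistant to alkylating drugs, and methylation of its promoter is known to silence it in tumours. It lies on chromosome 10, 129467184 to 129768007, plus strand, and its start region is the most GC-rich of the windows printed above. MGMT stood at 58.95, 59.3 and 55.9 CPM with shTMLHE 1, at 22.9, 20.7 and 23.8 CPM with shTMLHE 2, at 109.9, 109 and 104 CPM with CCNE1 overexpression alone and at 108, 111 and 111 CPM in control. The CCNE1 and control libraries overlapped, shTMLHE 1 lay below both and shTMLHE 2 below all. The log2 fold change was -2.26 ± 0.061 with shTMLHE 2, or 4.80-fold lower (edgeR adjusted p = 4.76e-29), and -0.89 ± 0.056 with shTMLHE 1, or 1.86-fold lower. After removal of the trend these were -1.85 with shTMLHE 2 and -0.72 with shTMLHE 1, and under total counts -1.73 with shTMLHE 2 and -0.50 with shTMLHE 1, all past the threshold. The CCNE1 value of -0.03 ± 0.055 did not pass, and turned to a called 0.20 with the trend removed.

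In mismatch repair, a list of only 5 genes, called rises outnumbered called falls on the TMM scale. With shTMLHE 2, 3 rose and 1 fell (median 0.68), and with shTMLHE 1, 2 rose and 1 fell (median 0.33). With CCNE1 overexpression 2 rose and 0 fell (median 0.23). Shares of all tested genes were 36.8% higher and 36.2% lower with shTMLHE 2, and 30.4% and 30.3% with shTMLHE 1. They were 25.1% and 19.1% with CCNE1 overexpression. Under total counts 4 members were higher and 0 lower with each hairpin. Of the 15378 tested genes, 8315 were then higher and 3443 lower with shTMLHE 2, and 7844 and 2490 with shTMLHE 1. Without the GC and length trend, 0 members were higher with either hairpin, and 2 were lower with shTMLHE 2 and 1 with shTMLHE 1. Counts over all tested genes in that fit are those given under base excision repair.

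MSH3, the MutS subunit for insertion and deletion loops, lies on chromosome 5, 80654648 to 80876460, plus strand. MSH3 stood at 14.7, 12.4 and 14.2 CPM with shTMLHE 1, at 18.5, 15.6 and 18.4 CPM with shTMLHE 2, at 12.02, 11.4 and 9.38 CPM with CCNE1 overexpression alone and at 6.55, 5.79 and 6.37 CPM in control. Control libraries were the lowest, CCNE1 came next, and both hairpin groups lay above CCNE1 without overlap. It rose by 0.80 ± 0.15 with CCNE1 overexpression (edgeR adjusted p = 3.64e-05), by 0.68 ± 0.13 with shTMLHE 2 and by 0.33 ± 0.14 with shTMLHE 1. The CCNE1 rise was 0.58 and still called with the trend removed, while the hairpin values were 0.06 with shTMLHE 2 and 0.18 with shTMLHE 1 and were not. The shTMLHE 1 call was also lost without CCNE1 replicate 3 (0.23), shTMLHE 1 replicate 1 (0.28) or shTMLHE 1 replicate 3 (0.31).

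MSH6, the MutS subunit for single mispairs, was more abundant. MSH6 stood at 53.6, 53.5 and 48.9 CPM with shTMLHE 1, at 68.7, 65.4 and 67.4 CPM with shTMLHE 2, at 77.1, 60.9 and 66.1 CPM with CCNE1 overexpression alone and at 56.2, 57.2 and 60.6 CPM in control. The shTMLHE 1 libraries lay below all the others, and shTMLHE 2 and CCNE1 overlapped. MSH6 fell with shTMLHE 1 on the TMM scale, at -0.38 ± 0.069, although the value was 0.012 under total counts, and a called -0.74 with the trend removed. It did not pass with shTMLHE 2, at -0.014, where total counts gave a called 0.52 and removal of the trend a called -0.70. With CCNE1 overexpression it rose by 0.23 ± 0.07, which was lost without CCNE1 replicate 1 (0.13) and with the trend removed (0.074).

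PMS2, PMS1 and MLH3 are MutL subunits. PMS2 is the strand-nicking one, and its reads may be shared with near-identical copies in the genome, so its values are uncertain. PMS2 stood at 12.3, 11.1 and 11.2 CPM with shTMLHE 1, at 7.56, 7.87 and 9.54 CPM with shTMLHE 2, at 12.6, 9.19 and 11.4 CPM with CCNE1 overexpression alone and at 8.15, 9.20 and 10.5 CPM in control. The shTMLHE 2 group overlapped both CCNE1 and control. Its fall with shTMLHE 2, -0.41 ± 0.15 (edgeR adjusted p = 0.0166), turned to 0.12 under total counts and was lost without CCNE1 replicate 1 (-0.31), shTMLHE 2 replicate 1 (-0.34) or shTMLHE 2 replicate 2 (-0.37), whereas removal of the trend gave a called -0.96. Its values of 0.066 with shTMLHE 1 and 0.25 with CCNE1 overexpression did not pass.

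PMS1 has a less defined part in mismatch repair. PMS1 stood at 5.04, 6.53 and 5.02 CPM with shTMLHE 1, at 6.49, 7.54 and 7.12 CPM with shTMLHE 2, at 3.88, 3.41 and 3.04 CPM with CCNE1 overexpression alone and at 4.04, 4.36 and 2.73 CPM in control. Hairpin libraries lay above CCNE1 and control, which overlapped. PMS1 rose by 1.04 ± 0.22 with shTMLHE 2 and by 0.69 ± 0.22 with shTMLHE 1, but the first turned to -0.0057 and the second was 0.26, both uncalled, with the trend removed. The shTMLHE 1 call was also lost without shTMLHE 1 replicate 2 (0.55). With CCNE1 overexpression the value of -0.12 did not pass.

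MLH3 also serves meiotic crossing over. MLH3 stood at 3.94, 4.42 and 3.45 CPM with shTMLHE 1, at 7.07, 6.78 and 6.45 CPM with shTMLHE 2, at 4.18, 2.26 and 2.91 CPM with CCNE1 overexpression alone and at 3.69, 4.28 and 4.14 CPM in control. Only shTMLHE 2 stood clear of all other groups. MLH3 rose by 1.14 ± 0.23 with shTMLHE 2, or 0.34 and uncalled with the trend removed. The values of 0.36 with shTMLHE 1 and -0.39 with CCNE1 overexpression did not pass, but without CCNE1 replicate 1 both did, at 0.61 with shTMLHE 1 and -0.65 with CCNE1 overexpression, and the CCNE1 value also did with the trend removed, at -0.63.

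Nucleotide excision repair genes moved in both directions. Of 10 members, 4 rose and 3 fell with shTMLHE 2 (median -0.047), and 2 rose and 3 fell with shTMLHE 1 (median -0.023). With CCNE1 overexpression 4 rose and 2 fell (median 0.18). Shares of all tested genes were 36.8% higher and 36.2% lower with shTMLHE 2, and 30.4% and 30.3% with shTMLHE 1. They were 25.1% and 19.1% with CCNE1 overexpression. Under total counts 5 members were higher and 2 lower with each hairpin. With the trend removed, 3 were higher and 4 lower with shTMLHE 2, and 2 higher and 5 lower with shTMLHE 1. Counts over all tested genes in both fits are those given under base excision repair.

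Of the genes of damage recognition, RAD23B moved in opposite directions with the hairpins. It stabilises the sensor XPC and lies on chromosome 9, 107283137 to 107332194, plus strand. RAD23B stood at 157, 154 and 162 CPM with shTMLHE 1, at 327, 312 and 317 CPM with shTMLHE 2, at 224, 209.6 and 205 CPM with CCNE1 overexpression alone and at 192, 174 and 177 CPM in control. The shTMLHE 2 libraries lay above all others and the shTMLHE 1 libraries below all others. Its log2 fold change was 0.58 ± 0.042 with shTMLHE 2 and -0.43 ± 0.043 with shTMLHE 1 (edgeR adjusted p = 1.51e-15 with shTMLHE 2 and 2.53e-11 with shTMLHE 1), and the difference of -1.02 ± 0.042 for shTMLHE 1 minus shTMLHE 2 passed as well. After removal of the trend the values were 0.14 with shTMLHE 2 and -0.51 with shTMLHE 1, with a difference of -0.65. Under total counts they were 1.11 with shTMLHE 2 and -0.039 with shTMLHE 1, of which the second did not pass, with a difference of -1.15. The rise of 0.23 ± 0.043 with CCNE1 overexpression was 0.086 and uncalled with the trend removed.

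XPC averaged 17.1 ± 0.920 CPM with shTMLHE 1, 15.7 ± 0.425 CPM with shTMLHE 2, 17.1 ± 1.21 CPM with CCNE1 alone and 18.3 ± 2.74 CPM in control, and its values of -0.12 with shTMLHE 2, 0.0049 with shTMLHE 1 and -0.10 with CCNE1 overexpression did not pass. Total counts gave a called 0.41 and 0.40 with the hairpins, and its exons overlap other genes over 30.4% of their length. DDB1, the adaptor of the CUL4 ubiquitin ligase that marks ultraviolet lesions, averaged 771 ± 7.25 CPM with shTMLHE 1, 559 ± 5.83 CPM with shTMLHE 2, 775 ± 18.9 CPM with CCNE1 alone and 1081 ± 27.1 CPM in control. It fell with CCNE1 overexpression against control, at -0.48 ± 0.03 (edgeR adjusted p = 6.62e-16), and with shTMLHE 2 against CCNE1, at -0.47 ± 0.03, the second of which turned to 0.057 under total counts and was a called -0.95 with the trend removed. With shTMLHE 1 the value of -0.0079 did not pass, and total counts gave 0.39 and removal of the trend -0.37, both called.

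XPA checks the opened lesion. XPA stood at 6.08, 4.65 and 6.36 CPM with shTMLHE 1, at 8.63, 9.04 and 8.08 CPM with shTMLHE 2, at 4.71, 2.92 and 3.36 CPM with CCNE1 overexpression alone and at 3.07, 2.54 and 3.97 CPM in control. The shTMLHE 2 libraries were highest, and 1 shTMLHE 1 library lay within the CCNE1 range. XPA rose by 1.25 ± 0.21 with shTMLHE 2 and 0.65 ± 0.22 with shTMLHE 1, and with the trend removed the rises were 1.07 with shTMLHE 2 and 0.88 with shTMLHE 1, both called. The shTMLHE 1 call was lost without CCNE1 replicate 2 (0.51) or shTMLHE 1 replicate 3 (0.57), and the CCNE1 value of 0.18 did not pass.

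Of the TFIIH helicase genes, ERCC2 fell in all 3 comparisons and ERCC3 rose with shTMLHE 2. ERCC2, also called XPD, lies on chromosome 19, 45349837 to 45370918, minus strand. ERCC2 stood at 247, 260.5 and 268 CPM with shTMLHE 1, at 93.6, 98.1 and 93.8 CPM with shTMLHE 2, at 389, 358 and 384 CPM with CCNE1 overexpression alone and at 531, 552 and 550.0 CPM in control. Each of the 4 groups stood apart from the other groups, with shTMLHE 2 lowest and control highest. The log2 fold change was -1.99 ± 0.041 with shTMLHE 2, or 3.96-fold lower (edgeR adjusted p = 6.62e-33), -0.54 ± 0.039 with shTMLHE 1 and -0.53 ± 0.038 with CCNE1 overexpression. Without the GC and length trend it was -1.28 with shTMLHE 2, -0.36 with shTMLHE 1 and -0.34 with CCNE1 overexpression, all called. ERCC3, or XPB, averaged 77.1 ± 3.86 CPM with shTMLHE 1, 93.4 ± 4.13 CPM with shTMLHE 2, 71.2 ± 1.25 CPM with CCNE1 alone and 72.3 ± 3.47 CPM in control. It rose with shTMLHE 2 by 0.39 ± 0.055, or 0.14 with the trend removed. The shTMLHE 1 value of 0.12 did not pass, but passed at 0.15 without shTMLHE 1 replicate 3, and the CCNE1 value was -0.024.

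Of the nuclease genes, ERCC1 encodes the partner of the enzyme that cuts on the upstream side. ERCC1 stood at 81.6, 80.8 and 89.3 CPM with shTMLHE 1, at 55.6, 53.7 and 50.6 CPM with shTMLHE 2, at 144, 146 and 152 CPM with CCNE1 overexpression alone and at 134, 127 and 133 CPM in control. All hairpin libraries were below all others, shTMLHE 2 being the lowest, and CCNE1 lay above control. ERCC1 fell with both hairpins, at -1.47 ± 0.052 with shTMLHE 2 and -0.82 ± 0.051 with shTMLHE 1, or -0.99 and -0.72 with the trend removed, and it rose by 0.17 ± 0.05 with CCNE1 overexpression, or 0.39 with the trend removed. Its exons overlap other genes over 28.6% of their length. ERCC5, the downstream nuclease, averaged 1.69 ± 0.660 CPM with shTMLHE 1, 1.76 ± 0.317 CPM with shTMLHE 2, 1.74 ± 0.604 CPM with CCNE1 alone and 1.08 ± 0.375 CPM in control, with all groups overlapping and no call in any comparison, and 63.2% of its exon length is shared with another gene on the same strand.

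The genes of transcription-coupled repair, ERCC6 and ERCC8, rose with CCNE1 overexpression. ERCC6 is the translocase that meets a stalled polymerase. ERCC6 stood at 27.9, 25.7 and 22.9 CPM with shTMLHE 1, at 24.2, 23.3 and 23.3 CPM with shTMLHE 2, at 8.51, 9.08 and 13.1 CPM with CCNE1 overexpression alone and at 5.65, 5.39 and 6.54 CPM in control. All hairpin libraries lay above CCNE1, and CCNE1 above control. ERCC6 rose by 1.20 ± 0.13 with shTMLHE 2 and 1.31 ± 0.13 with shTMLHE 1 (edgeR adjusted p = 1.26e-10 with shTMLHE 2 and 2.65e-11 with shTMLHE 1), and by 0.81 ± 0.16 with CCNE1 overexpression. With the trend removed the shTMLHE 2 value turned to -0.0044, while 0.60 with shTMLHE 1 and 0.50 with CCNE1 overexpression still passed.

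ERCC8 recruits a ubiquitin ligase to the same site. ERCC8 stood at 8.49, 7.58 and 6.05 CPM with shTMLHE 1, at 8.26, 9.52 and 8.86 CPM with shTMLHE 2, at 10.8, 7.21 and 12.5 CPM with CCNE1 overexpression alone and at 4.60, 5.79 and 2.15 CPM in control. CCNE1 and hairpin libraries overlapped, and control lay below all CCNE1 libraries. ERCC8 rose by 1.27 ± 0.24 with CCNE1 overexpression, or 2.41-fold (edgeR adjusted p = 5.14e-05), and by 1.07 with the trend removed. Its values of -0.19 with shTMLHE 2 and -0.46 with shTMLHE 1 did not pass, but with the trend removed they were -0.78 with shTMLHE 2 and -0.62 with shTMLHE 1 and did, and the shTMLHE 1 value passed at -0.66 without CCNE1 replicate 2. Under total counts the shTMLHE 2 value of ERCC8 turned to 0.34 and did not pass. A share of 28.3% of its exon length is covered by another gene on the same strand.

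In end joining, the Ku genes fell and LIG4 rose with both hairpins, although XRCC5 turned to slightly above 0 with shTMLHE 2 under total counts. Of 8 tested members, 3 rose and 4 fell with shTMLHE 2 (median -0.20), and 1 rose and 4 fell with shTMLHE 1 (median -0.092). With CCNE1 overexpression 3 rose and 0 fell (median 0.48). Shares of all tested genes were 36.8% higher and 36.2% lower with shTMLHE 2, and 30.4% and 30.3% with shTMLHE 1. They were 25.1% and 19.1% with CCNE1 overexpression. Under total counts 4 members were higher and 2 lower with shTMLHE 2 and 5 higher and 3 lower with shTMLHE 1. After removal of the trend, 1 was higher and 4 lower with shTMLHE 2, and 2 were higher and 4 lower with shTMLHE 1. Counts over all tested genes in both fits are those given under base excision repair.

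XRCC6, the smaller Ku subunit, lies on chromosome 22, 41621119 to 41664048, plus strand. XRCC6 stood at 499, 476 and 468 CPM with shTMLHE 1, at 545, 531 and 538 CPM with shTMLHE 2, at 873, 840.3 and 820.2 CPM with CCNE1 overexpression alone and at 828, 781 and 851 CPM in control. CCNE1 and control overlapped, and every hairpin library lay below them. The log2 fold change was -0.65 ± 0.034 with shTMLHE 2 and -0.81 ± 0.034 with shTMLHE 1 (edgeR adjusted p = 1.12e-19 with shTMLHE 2 and 2.98e-22 with shTMLHE 1), and, with the trend removed, -0.47 with shTMLHE 2 and -0.66 with shTMLHE 1. Its CCNE1 value of 0.043 did not pass, and was a called 0.21 with the trend removed. XRCC5, the larger Ku subunit, averaged 278 ± 11.97 CPM with shTMLHE 1, 307 ± 6.79 CPM with shTMLHE 2, 425 ± 13.4 CPM with CCNE1 alone and 320.2 ± 12.7 CPM in control. It rose with CCNE1 overexpression, at 0.41 ± 0.038, and fell with shTMLHE 1, at -0.61 ± 0.038, and with shTMLHE 2, at -0.47 ± 0.038, the last of which turned to 0.06 under total counts. Trend-removed values of XRCC5 were -1.03 with shTMLHE 2 and 0.22 with CCNE1 overexpression, both called.

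PRKDC, the catalytic subunit of DNA-PK, averaged 645 ± 29.6 CPM with shTMLHE 1, 724 ± 20.8 CPM with shTMLHE 2, 687 ± 17.9 CPM with CCNE1 alone and 446 ± 14.6 CPM in control. It rose with CCNE1 overexpression by 0.62 ± 0.036 (edgeR adjusted p = 2.98e-17), without overlap, and by 0.51 with the trend removed. The hairpin values were close to 0, at 0.075 with shTMLHE 2, which did not pass, and -0.091 with shTMLHE 1, which did. The shTMLHE 1 value was a called -0.54 with the trend removed, turned to 0.30 under total counts and was lost without CCNE1 replicate 1 (-0.084), CCNE1 replicate 2 (-0.079) or shTMLHE 1 replicate 3 (-0.058). The shTMLHE 2 value passed without CCNE1 replicate 2 (0.087) or shTMLHE 2 replicate 2 (0.10), and turned to a called -0.64 with the trend removed.

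LIG4, the ligase of this route, lies on chromosome 13, 108207439 to 108218368, minus strand. LIG4 stood at 9.75, 8.30 and 7.08 CPM with shTMLHE 1, at 17.96, 15.97 and 16.7 CPM with shTMLHE 2, at 3.29, 4.51 and 2.66 CPM with CCNE1 overexpression alone and at 2.23, 1.74 and 3.23 CPM in control. The shTMLHE 2 libraries were highest, shTMLHE 1 came next, and neither reached down to CCNE1 or control, which overlapped. LIG4 rose by 2.26 ± 0.19 with shTMLHE 2, or 4.79-fold (edgeR adjusted p = 1.48e-13), and by 1.25 ± 0.2 with shTMLHE 1, or 2.38-fold. Without the GC and length trend the rises were 1.15 with shTMLHE 2 and 0.79 with shTMLHE 1, both called. The CCNE1 value of 0.56 did not pass, but passed without CCNE1 replicate 3 (0.73) or control replicate 3 (0.81).

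XRCC4, the partner of that ligase, averaged 2.88 ± 0.198 CPM with shTMLHE 1, 3.60 ± 0.554 CPM with shTMLHE 2, 1.72 ± 1.19 CPM with CCNE1 alone and 1.02 ± 0.202 CPM in control, from 10 to 103 counts per library. It rose with shTMLHE 2 by 1.10 ± 0.34, and this was 1.70 without CCNE1 replicate 1, 0.70 without CCNE1 replicate 3 and an uncalled -0.14 with the trend removed. The shTMLHE 1 value of 0.77 and the CCNE1 value of 0.72 did not pass, but passed at 1.37 without CCNE1 replicate 1 and at 1.11 without CCNE1 replicate 3. NHEJ1 steadies the same complex. It had 1, 2 and 3 counts with shTMLHE 1, 3, 2 and 4 counts with shTMLHE 2, and 0 counts in all CCNE1 and control libraries, with 65.4% of its exon length shared with another gene on the same strand, so no fold is given.

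DCLRE1C encodes Artemis, the nuclease that opens hairpin ends. DCLRE1C stood at 5.31, 5.42 and 3.93 CPM with shTMLHE 1, at 6.37, 7.77 and 8.69 CPM with shTMLHE 2, at 4.71, 4.07 and 4.94 CPM with CCNE1 overexpression alone and at 2.93, 2.46 and 2.90 CPM in control. All CCNE1 libraries lay above control, and the shTMLHE 2 libraries above CCNE1. DCLRE1C rose by 0.72 ± 0.23 with CCNE1 overexpression (edgeR adjusted p = 0.0115) and by 0.73 ± 0.21 with shTMLHE 2, and with the trend removed neither passed, at 0.56 with CCNE1 overexpression and 0.19 with shTMLHE 2. Its shTMLHE 1 value was 0.10 and did not pass.

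POLL and POLM fill gaps at joined ends. POLL stood at 36.2, 41.4 and 44.00 CPM with shTMLHE 1, at 20.8, 20.8 and 21.1 CPM with shTMLHE 2, at 64.6, 64.9 and 70.6 CPM with CCNE1 overexpression alone and at 69.1, 61.8 and 67.6 CPM in control. The shTMLHE 2 libraries were lowest, shTMLHE 1 came next, and CCNE1 and control overlapped. POLL fell with both hairpins, at -1.67 ± 0.076 with shTMLHE 2 and -0.72 ± 0.072 with shTMLHE 1 (edgeR adjusted p = 1.05e-21 with shTMLHE 2 and 3.65e-11 with shTMLHE 1). With the trend removed the values were -1.13 with shTMLHE 2 and -0.58 with shTMLHE 1, and the CCNE1 value of 0.011 became a called 0.24. POLM averaged 43.3 ± 1.56 CPM with shTMLHE 1, 28.9 ± 0.345 CPM with shTMLHE 2, 46.2 ± 1.74 CPM with CCNE1 alone and 49.03 ± 3.47 CPM in control. It fell with shTMLHE 2, at -0.68 ± 0.074, which turned to 0.10 with the trend removed and was -0.15 and uncalled under total counts. Its values of -0.094 with shTMLHE 1 and -0.087 with CCNE1 overexpression did not pass, and the shTMLHE 1 value turned to a called 0.30 under total counts and a called 0.20 with the trend removed.

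The hairpin groups were then set against each other, since both target the same gene. For shTMLHE 1 minus shTMLHE 2, 13 members were higher and 13 lower, or 70.3%, beside 60.3% of all tested genes (31.3% higher and 29% lower). Higher with shTMLHE 1 were the genes that shTMLHE 2 lowered most, with ERCC2 at 1.44 ± 0.041, OGG1 at 1.43 ± 0.09, MGMT at 1.37 ± 0.063 and NTHL1 at 1.30 ± 0.069. POLL (0.95), MUTYH (0.87), XRCC1 (0.85), ERCC1 (0.65), POLM (0.58), APEX2 (0.50), PMS2 (0.48), DDB1 (0.46) and APEX1 (0.14) were the others, and APEX1 turned to -2.3e-06 under total counts and was 0.088 and uncalled without shTMLHE 1 replicate 3. Lower with shTMLHE 1 were TDG at -1.45 ± 0.11, RAD23B at -1.02 ± 0.042 and LIG4 at -1.01 ± 0.17, followed by MLH3 (-0.78), DCLRE1C (-0.63), XPA (-0.59), MBD4 (-0.44), MSH6 (-0.37), MSH3 (-0.35), ERCC3 (-0.28), PRKDC (-0.17), XRCC6 (-0.16) and XRCC5 (-0.14).

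Single libraries decided some of these differences. The MSH3 call was lost without shTMLHE 1 replicate 2 (-0.28), shTMLHE 2 replicate 1 (-0.31) or shTMLHE 2 replicate 3 (-0.31). The XPA call was lost without shTMLHE 1 replicate 2 (-0.47), and the DCLRE1C call without shTMLHE 1 replicate 3 (-0.50) or shTMLHE 2 replicate 3 (-0.53). POLB, at 0.13, passed at 0.24 without shTMLHE 1 replicate 3.

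Removal of the trend left 16 members higher and 5 lower with shTMLHE 1 than with shTMLHE 2. Of the 15378 tested genes, 4082 were then higher and 3396 lower. LIG4 (-0.36), MLH3 (-0.33), DCLRE1C (-0.27), XPA (-0.19), MBD4 (-0.065), MSH6 (-0.042) and POLM (0.10) lost their calls. MSH3 (0.12, uncalled), PRKDC (0.10) and XRCC5 (0.26) turned to above 0, and UNG turned from an uncalled 0.052 to a called -0.12. POLB (0.70) and ERCC6 (0.60) became called, ERCC6 having been at 0.11. Calls kept with values moved by more than 1.5 times were ERCC2 (0.92), NTHL1 (0.63), POLL (0.55), MUTYH (0.43), XRCC1 (0.39), ERCC1 (0.27), APEX2 (0.22), PMS2 (0.93), TDG (-0.87) and RAD23B (-0.65).

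The choice of members had not used the GC content of their exons. Over the 37 members, Spearman's correlation of exon GC content with the log2 fold change was -0.75 with shTMLHE 2, -0.60 with shTMLHE 1 and -0.57 with CCNE1 overexpression. Over 15373 tested genes it was -0.65 with shTMLHE 2, -0.38 with shTMLHE 1 and -0.38 with CCNE1 overexpression, and all points of a comparison share the same libraries. Members that rose with shTMLHE 2 had a median exon GC content of 42.0% (n = 12) and those that fell 52.5% (n = 19), against 48.8% for all tested genes. With shTMLHE 1 the median was 41.0% for those that rose (n = 8) and 52.4% for those that fell (n = 17). After removal of the trend the correlations over the members were -0.37 with shTMLHE 2, -0.32 with shTMLHE 1 and -0.049 with CCNE1 overexpression. Across the 1538 tested genes lowest in GC content, log2 fold changes with shTMLHE 2 had a median of 1.31, while across the 1537 highest they had one of -1.29. For shTMLHE 1 these medians were 0.65 in the lowest genes and -0.47 in the highest. What part GC content has in the members' changes was not tested.

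**Figure D4:**
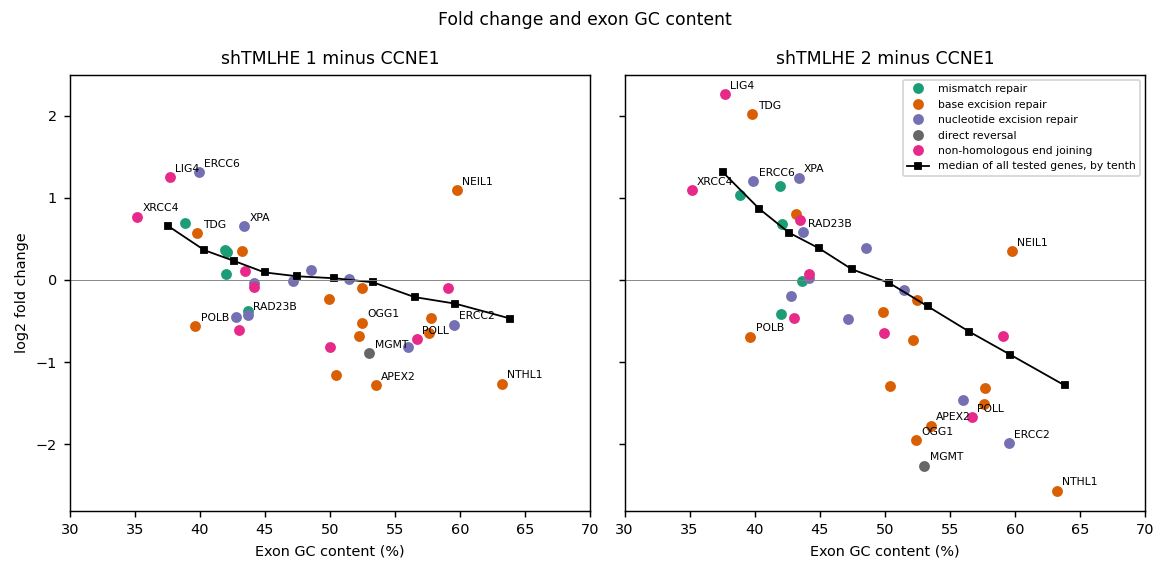
Points are members by exon GC content (x, %) and log2 fold change (y) for each hairpin minus CCNE1, and the black line joins the medians of all tested genes in 10 bins of GC content. With shTMLHE 2 the line runs from 1.31 to -1.29, and MGMT at -2.26 and OGG1 at -1.95 lie far below it while POLB at -0.69 does so at low GC content.

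The members at the extremes were in part other ones once the trend was removed. With shTMLHE 2, OGG1 (-1.89), MGMT (-1.85) and POLB (-1.54) were lowest, followed by APEX2 (-1.29), ERCC2 (-1.28) and NTHL1 (-1.28, from -2.57 as counted). LIG4 (1.15, from 2.26), TDG (1.12, from 2.02), XPA (1.07) and NEIL1 (1.05, from an uncalled 0.35) were highest. With shTMLHE 1 the extremes were APEX2 (-1.06) and NEIL1 (1.26). Over all members, 7 were higher and 20 lower with shTMLHE 2 after the removal, and 6 higher and 19 lower with shTMLHE 1. Of the 15378 tested genes, 4712 were then higher and 5047 lower with shTMLHE 2, and 4295 and 4394 with shTMLHE 1.

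**Figure D5:**
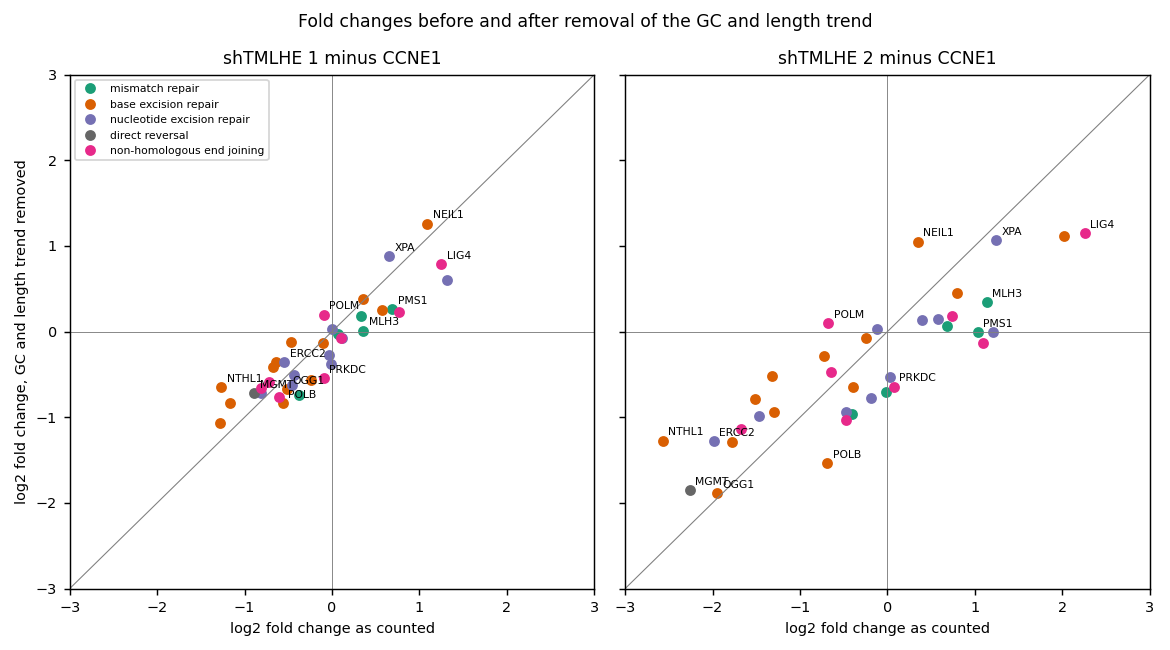
Each point is a member by its log2 fold change as counted (x) and after the GC and length trend was removed (y), with a line of equality. OGG1 stays near the line with shTMLHE 2 (-1.95 and -1.89) and NTHL1 lies at -2.57 and -1.28. PMS1, ERCC6, XRCC4, POLM and PRKDC cross 0 with shTMLHE 2, as do XPC and ERCC5, which were uncalled in both fits.

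Levels were compared between genes per kilobase of exon (RPKM, computed from the counts and the table's gene lengths). In control the most abundant were XRCC6 at 249 ± 10.9 RPKM and APEX1 at 239 ± 3.32 RPKM (SD, n = 3), whose ranges of mean ± SD met. ERCC2 at 84.4 ± 1.76, DDB1 at 77.5 ± 1.94, UNG at 72.9 ± 1.27 and XRCC5 at 58.6 ± 2.33 RPKM followed, each clear of the next by more than their SD. With shTMLHE 2 the order changed: XRCC6 at 164 ± 2.15 and APEX1 at 104 ± 3.07 RPKM still led, RAD23B came next at 69.1 ± 1.67 RPKM, and ERCC2 was down at 14.8 ± 0.400 RPKM. At the low end in control were ERCC6 at 0.350 ± 0.0360, NEIL1 at 0.315 ± 0.157 and ERCC5 at 0.132 ± 0.0455 RPKM.

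Genes that work with these members were read as 54 partners, of which 53 were tested. With shTMLHE 2, 19 rose and 25 fell, where 36.8% of all tested genes were higher and 36.2% lower on the TMM scale. Under total counts 36 rose and 14 fell, beside 8315 and 3443 of the 15378 tested genes. With the trend removed 9 rose and 29 fell, beside 4712 and 5047 of the tested genes. With shTMLHE 1, 10 rose and 26 fell, where 30.4% of all tested genes were higher and 30.3% lower on the TMM scale. Under total counts 26 rose and 14 fell, beside 7844 and 2490 of the tested genes. With the trend removed 5 rose and 26 fell, beside 4295 and 4394 of the tested genes. With CCNE1 overexpression 28 rose and 5 fell, where 25.1% of all tested genes were higher and 19.1% lower on the TMM scale. With the trend removed 24 rose and 2 fell, beside 3683 and 1979 of the tested genes. Of the 28 rises, 14 were among the 19 genes of resynthesis and ligation, of which 1 fell (median 0.31), 8 among 17 TFIIH and nucleotide excision partners and 5 among 7 end-joining partners (median 0.58). HMGB1, a chromatin protein that assists excision, was at 0.94 ± 0.046 and POLD2, a subunit of DNA polymerase delta, at 0.57 ± 0.036. Of the 19 resynthesis genes, 13 fell and 3 rose with shTMLHE 2, or 6 and 11 under total counts, and 12 fell and 2 rose with shTMLHE 1, or 8 and 6 under total counts. POLD1, the catalytic subunit of delta, was at -2.48 ± 0.053 with shTMLHE 2 and -0.998 ± 0.049 with shTMLHE 1, and POLD2 at -1.81 ± 0.037 with shTMLHE 2 and -1.04 ± 0.036 with shTMLHE 1. Trend-removed values were -1.33 for POLD1 and -1.02 for POLD2 with shTMLHE 2, and -0.62 for POLD1 with shTMLHE 1, all called.

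Among partners of base excision and single-strand breaks, the alkylbase glycosylase MPG fell with both hairpins, at -1.80 ± 0.083 with shTMLHE 2 and -0.78 ± 0.079 with shTMLHE 1, or -0.38 with shTMLHE 2 and an uncalled -0.045 with shTMLHE 1 once the trend was removed. With CCNE1 overexpression PARG, which removes poly(ADP-ribose), rose by 0.63 ± 0.19 and ADPRHL2 fell, at -0.23 ± 0.068, but neither passed with the trend removed (0.44 for PARG and -0.017 for ADPRHL2). Of the TFIIH and nucleotide excision partners, XAB2, which binds XPA, fell with both hairpins, at -1.47 ± 0.041 with shTMLHE 2 and -0.69 ± 0.040 with shTMLHE 1, or -0.56 with shTMLHE 2 and -0.35 with shTMLHE 1 with the trend removed. RBX1, a ligase subunit beside DDB1, fell with shTMLHE 1, at -0.95 ± 0.055. CUL4B rose by 0.66 ± 0.097 and GTF2H1 by 0.51 ± 0.10 with CCNE1 overexpression, where removal of the trend gave 0.30 for CUL4B and an uncalled 0.12 for GTF2H1. Of 7 end-joining partners, 5 rose and 1 fell with shTMLHE 2 (median 1.04) and 4 rose and 1 fell with shTMLHE 1 (median 0.83), beside the shares of all tested genes given above. With the trend removed 4 were higher and 0 lower with shTMLHE 2 (median 0.21), and 2 higher and 1 lower with shTMLHE 1 (median 0.24). The kinase ATM rose by 1.46 ± 0.090 with shTMLHE 2 and 1.11 ± 0.092 with shTMLHE 1, and by 0.58 ± 0.11 with CCNE1 overexpression. Removal of the trend left ATM at 0.21 with shTMLHE 2, 0.30 with shTMLHE 1 and 0.30 with CCNE1 overexpression, all called. PAXX, which binds Ku, fell with both hairpins, at -1.63 ± 0.053 with shTMLHE 2 and -1.26 ± 0.052 with shTMLHE 1 and rose by 0.24 ± 0.050 with CCNE1 overexpression, and removal of the trend left an uncalled -0.084 with shTMLHE 2 and a called -0.47 with shTMLHE 1. TP53BP1 was lower with shTMLHE 1 than with shTMLHE 2, at -0.51 ± 0.071, or -0.32 with the trend removed.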

How the data were processed

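RNA was sequenced in 12 Ovcar8 libraries, placed in 4 groups of 3 by their labels. The authors deposited raw counts of reads per gene, whole numbers for 58735 genes with no normalization. STAR 2.6.1 and DESeq2 with the GRCh38 build are named in the submitters' processing notes. Which program counted reads, whether by strand, and how it treated multiply mapped reads is not given in the sources used here. Nothing in the labels tells whether replicates came from separate cultures, so p-values measure only how far these samples spread, which may be technical.

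The counts were fitted with edgeR 4.0.16 in R 4.3.3 (filterByExpr by group, TMM, robust quasi-likelihood fit of 1 mean per group over all 12 libraries, 8 residual degrees of freedom). Benjamini-Hochberg adjustment ran over all 15378 genes, and a gene passed, or was called, at an adjusted p under 0.05. CPM and RPKM were computed from TMM-scaled library sizes, and RPKM also from the table's gene lengths. Exon GC content and overlap came from GENCODE, whose exon lengths equalled the table's for 100% of genes. For the trend-removed fit, each library's deviation of log2 CPM from the gene's mean was regressed on splines of GC content and length (6 degrees of freedom each), and the fitted trend became an offset. The main fit, without the trend removal, was tried on simulated counts in which few genes changed and no GC trend was built in. That trial does not bear on the trend-removed fit, nor on libraries where most genes differ.

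The members, partner lists and alternatives were chosen with earlier results of these data known, so no list was tested as a set. Members shown library by library were, per route and comparison, the called member with the largest rise and fall, the one with the smallest p between the hairpins, and any with opposed called hairpin effects. Partners named were up to 2 per list and comparison by smallest p, of which some are not reported here. Alternatives were RLE size factors, total counts, other count filters (none, and at least 50 counts in 3 libraries), DESeq2 1.42.0, the compared groups alone, a replicate block, the trend-removed fit, and each library left out. No 2 libraries of a group agreed within sampling noise. The FPKM file was not used here.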

Additional observations from a re-analysis of the deposited data

Results flagged for a closer look

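RAD23B, which stabilises the nucleotide excision sensor XPC, changed in opposite directions with the hairpins. It averaged 158 ± 4.02 CPM with shTMLHE 1, 319 ± 7.70 CPM with shTMLHE 2 and 213 ± 10.1 CPM with CCNE1 overexpression alone (SD, n = 3). The test of the difference itself, shTMLHE 1 minus shTMLHE 2, gave a log2 fold change of -1.02 ± 0.042 (edgeR adjusted p = 2.11e-22), and all 3 libraries of shTMLHE 1 lay below and all 3 of shTMLHE 2 above the CCNE1 libraries. The difference kept its sign and its call under every alternative run, from -1.15 under total counts to -0.65 after removal of the trend on GC content and length. The opposed directions were less firm. Against CCNE1 overexpression alone, the shTMLHE 1 value was -0.039 and uncalled under total counts. The shTMLHE 2 value was 0.14, still called, with the trend removed. TMLHE itself averaged lower with shTMLHE 2 (0.482 ± 0.241 CPM) than with shTMLHE 1 (0.956 ± 0.286 CPM). These groups overlapped, and their libraries held only 6 to 21 TMLHE counts each. What part the depth of knockdown or the hairpin sequence has in this was not tested.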

How the results depend on the processing

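Counts of called members depended on the scaling and on the GC trend. Under total counts 18 members were higher and 10 lower with shTMLHE 1, beside 8 and 17 on the TMM scale. With shTMLHE 2, 12 were lower, beside 19. Of 15378 tested genes, 7844 were higher and 2490 lower with shTMLHE 1 under total counts, beside 4673 and 4665. With shTMLHE 2, 3443 of them were lower, beside 5571. With the GC and length trend removed 7 members were higher with shTMLHE 2, beside 12, and 5 were lower for shTMLHE 1 minus shTMLHE 2, beside 13. Among all tested genes 4712 were then higher with shTMLHE 2, beside 5653. For shTMLHE 1 minus shTMLHE 2, 3396 were lower, beside 4466. With each library left out in turn, the counts ran from 7 to 8 higher and 16 to 18 lower with shTMLHE 1, from 12 to 13 higher and 17 to 19 lower with shTMLHE 2, and from 10 to 14 higher and 3 to 5 lower with CCNE1 overexpression. For shTMLHE 1 minus shTMLHE 2 they were 13 higher and 11 to 13 lower.

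Signs of values called in either of the fits compared turned under 2 alternatives, and uncalled signs near 0 turned under others too. Under total counts, log2 fold changes with shTMLHE 1 became 0.012 for MSH6, 0.30 for SMUG1, 0.39 for DDB1, 0.30 for PRKDC and 0.30 for POLM. With shTMLHE 2 they became 0.52 for MSH6, 0.12 for PMS2, 0.28 for SMUG1, 0.14 for LIG3, 0.41 for XPC, 0.057 for DDB1 and 0.060 for XRCC5, and APEX1 became -2.3e-06 for shTMLHE 1 minus shTMLHE 2. That scaling moved the median of all tested genes by its construction. With the GC and length trend removed, MGMT became 0.20 with CCNE1 overexpression and POLM 0.20 with shTMLHE 1. With shTMLHE 2, PMS1 became -0.0057, ERCC6 -0.0044, PRKDC -0.64, XRCC4 -0.14 and POLM 0.097. For shTMLHE 1 minus shTMLHE 2, MSH3 became 0.12, UNG -0.12, PRKDC 0.10 and XRCC5 0.26. The cause was not tested. RLE size factors, DESeq2, the other filters and the fits of the compared groups turned no called sign.

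Same-numbered replicates did not deviate together (correlations of -0.0734 to 0.0496 over 9239 genes). With 3 libraries per group this cannot settle whether the numbers mark paired samples, and the labels do not say. With the replicate number as a block, the counts were the same in each direction and comparison except 9 higher with shTMLHE 1, where XRCC4 passed at 0.83. NEIL3, NHEJ1, NEIL1, ERCC5 and XRCC4 had few or no counts, and nothing can be said of differences there below the spread of the libraries.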

Other observations

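NEIL3 and its neighbour AGA, both on chromosome 4 of GRCh38 (NEIL3 at 177309836 to 177362943, AGA at 177430770 to 177442503), had 0 counts in all 12 libraries. AGA encodes a lysosomal amidase and was chosen after its values were seen. Genes farther out on either side were counted: VEGFC had 412 counts over the 12 libraries, SPCS3 16787, TENM3 6708 and DCTD 22236. ASB5, beyond SPCS3, had only 15, with 0 to 8 per library. The cause of the zeros was not tested.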
